A study of Mus musculus with 21 samples.

Results

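The genes described are 10 mouse genes of the actin cytoskeleton: the actins Actb and Actg1 and the actin-binding genes Pfn1, Cfl1, Tmsb4x, Tmsb10, Arpc2, Coro1a, Tagln2 and Plek. They are a named list of cytoskeleton genes, chosen with earlier results of these data known, and they are 10 of the 14698 genes that any of the 4 expression tables lists. The list was chosen by measured values, the log2 CPM differences between each inhibitor group and its DMSO group, so those differences are given as a description and no test of them is used as support. Each of the 4 tables lists all 10 genes.

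Ba/F3 is a mouse cell line that the labels describe as pro-B and dependent on interleukin-3, and the cells of every group, controls included, express the activated kinase JAK2-V617F. RNA was sequenced from 21 libraries in 7 groups of 3, to compare 2 JAK2 inhibitors, ruxolitinib and CHZ868, under continuous exposure and after washout. Continuous exposure lasted 6 h at 1 μM (Ruxo_treated and CHZ_treated, with DMSO_treated as the solvent control of both). For washout, cells had 1 h of 1 μM inhibitor, were washed, and were kept 6 h without it (Ruxo_wash with DMSO_wash, and CHZ_wash with DMSO_wash_exp3, each DMSO group having had solvent for 1 h). The labels give neither how JAK2-V617F expression is driven nor whether the cells are a clone, and they do not say that replicates came from separate cultures, so p-values measure the spread between these samples, which may be technical.

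Actin is held in cells as monomers and as filaments, and the actin-binding proteins set the balance. Profilin feeds monomers to growing ends, thymosins hold monomers in reserve, cofilin severs and depolymerises old filaments, the Arp2/3 complex starts branches and coronins act on Arp2/3 and cofilin. Free monomers also hold the coactivators Mrtfa and Mrtfb in the cytoplasm, and these act with the transcription factor Srf, whose known targets include the actin genes themselves.

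Levels are log2 CPM, where CPM is a count scaled by library size, and a difference is inhibitor minus DMSO on that scale, with the standard error (SE) of the limma fit. Between 7880000 and 10670000 reads fell on the listed genes in each library of the CHZ_treated, DMSO_treated, Ruxo_treated, CHZ_wash and DMSO_wash_exp3 groups. The depth of the Ruxo_wash and DMSO_wash libraries is unknown. Ruxo_treated lies in a table normalized apart from that of DMSO_treated, so its differences were taken after centring each library on its median over 11624 shared genes, and they carry no test. In bulk RNA, fewer cells of a type and less RNA per cell cannot be told apart.

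Libraries within a group were not equally close. Mitochondrially encoded genes took 3.53% of the CPM in Ruxo_treated replicate 2, against 1.70% and 1.72% in replicates 1 and 3. They took 5.33% in DMSO_wash_exp3 replicate 3, against 2.84% and 2.27% in replicates 1 and 2, and 2.14%, 1.76% and 1.87% in CHZ_wash, below every library of its DMSO group. Between treatments the share was 4.97%, 4.93% and 6.37% in CHZ_treated and 1.42%, 1.42% and 1.36% in DMSO_treated. Its part in the actin values was not tested.

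The labelled cell type was set against its markers. Of 10 pro-B markers looked up, 2 had values, Cd79a and Cd79b, at a summed 29.2, 34.0 and 30.7 CPM in DMSO_treated, 40.1, 38.4 and 39.8 in CHZ_treated and 44.8, 39.1 and 38.6 in Ruxo_treated, so the values analysed give the label little support. The mast cell and basophil gene Gata2, the only gene of 6 on its list with values, was at 677, 699 and 715 CPM in DMSO_treated and higher in every Ruxo_treated library (816, 901 and 899). Marker values of Ruxo_treated were normalized apart from those of DMSO_treated and were not centred, so the gaps between them are uncertain. All 3 interleukin-3 receptor genes were listed, at a summed 3190, 3150 and 3220 CPM in DMSO_treated, with Csf2rb the most abundant, and lower in every CHZ_treated library (2380, 2480 and 2680). Among markers of other cells, 2 of 5 erythroid genes (Hba-a1 and Epor, Hba-a1 the more abundant) summed to 774, 432 and 770 CPM in Ruxo_treated, 400, 430 and 372 in CHZ_treated and 337, 374 and 363 in DMSO_treated. Csf1r, 1 of 6 neutrophil and monocyte genes, was lower in every CHZ_treated library (at most 6.45 CPM) than in DMSO_treated (at least 7.32 CPM).

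The washout groups differed in these markers too. The same erythroid genes summed to 299, 226 and 228 CPM in CHZ_wash, above 138, 190 and 124 in DMSO_wash_exp3. The interleukin-3 receptor genes summed to 1640, 1600 and 1620 CPM in CHZ_wash, below 1760, 1650 and 1820 in DMSO_wash_exp3. In the table of Ruxo_wash and DMSO_wash, 4 of the 5 erythroid genes were listed, at 3470, 3530 and 3570 CPM against 4010, 3970 and 4040, and the interleukin-3 receptor genes were at 271, 254 and 281 against 331, 320 and 340. The pro-B sum there was 27.0, 25.5 and 24.7 CPM against 21.4, 22.3 and 22.7. The part of these markers in the results, the comparison of washouts included, was not tested.

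Per kilobase of the principal transcript, Actb had the highest level of the 10 genes in DMSO_treated cells, 9.56 ± 0.06 log2 CPM per kb (SD, n = 3). Tmsb4x followed at 9.22 ± 0.06, then Pfn1 at 8.95 ± 0.06. Actg1 (8.25 ± 0.06) and Tagln2 (8.24 ± 0.03) did not differ beyond their spread, and neither did Arpc2 and Cfl1, at 8.15 ± 0.04 each. Plek (6.95 ± 0.02), Coro1a (6.60 ± 0.08) and Tmsb10 (3.61 ± 0.25) came last. The order was not the same in every DMSO group: Tmsb4x led in DMSO_wash, at 12.62 ± 0.02 log2 CPM per kb, while Tmsb10 was last in DMSO_wash_exp3 and Plek in DMSO_wash. These tables were normalized separately, so only the order within a group can be read.

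Under 6 h of CHZ868, limma called 3 of the 10 genes lower than DMSO and 6 higher, where 26.4% of the 11670 genes of the table were called lower and 26.8% higher, 53.2% in all (Benjamini-Hochberg adjusted p below 0.05). The groups did not overlap for these same 9 genes, beside 30.1% of all genes apart and lower and 29.6% apart and higher. Both actins and Coro1a were lower, Cfl1, Arpc2, Plek, Pfn1, Tagln2 and Tmsb10 were higher, and Tmsb4x was not called. Under 6 h of ruxolitinib, the groups did not overlap and ruxolitinib was lower for 4 genes (Actb, Actg1, Coro1a and Tmsb4x) and higher for 2 (Arpc2, barely apart, and Plek), where 20.1% of the 11624 shared genes were apart and lower and 24.6% apart and higher. CHZ_treated and Ruxo_treated share the DMSO_treated libraries, so their values stand side by side and are not independent. Nothing is read from these counts, since the same contrasts chose the genes.

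**Figure D1:**
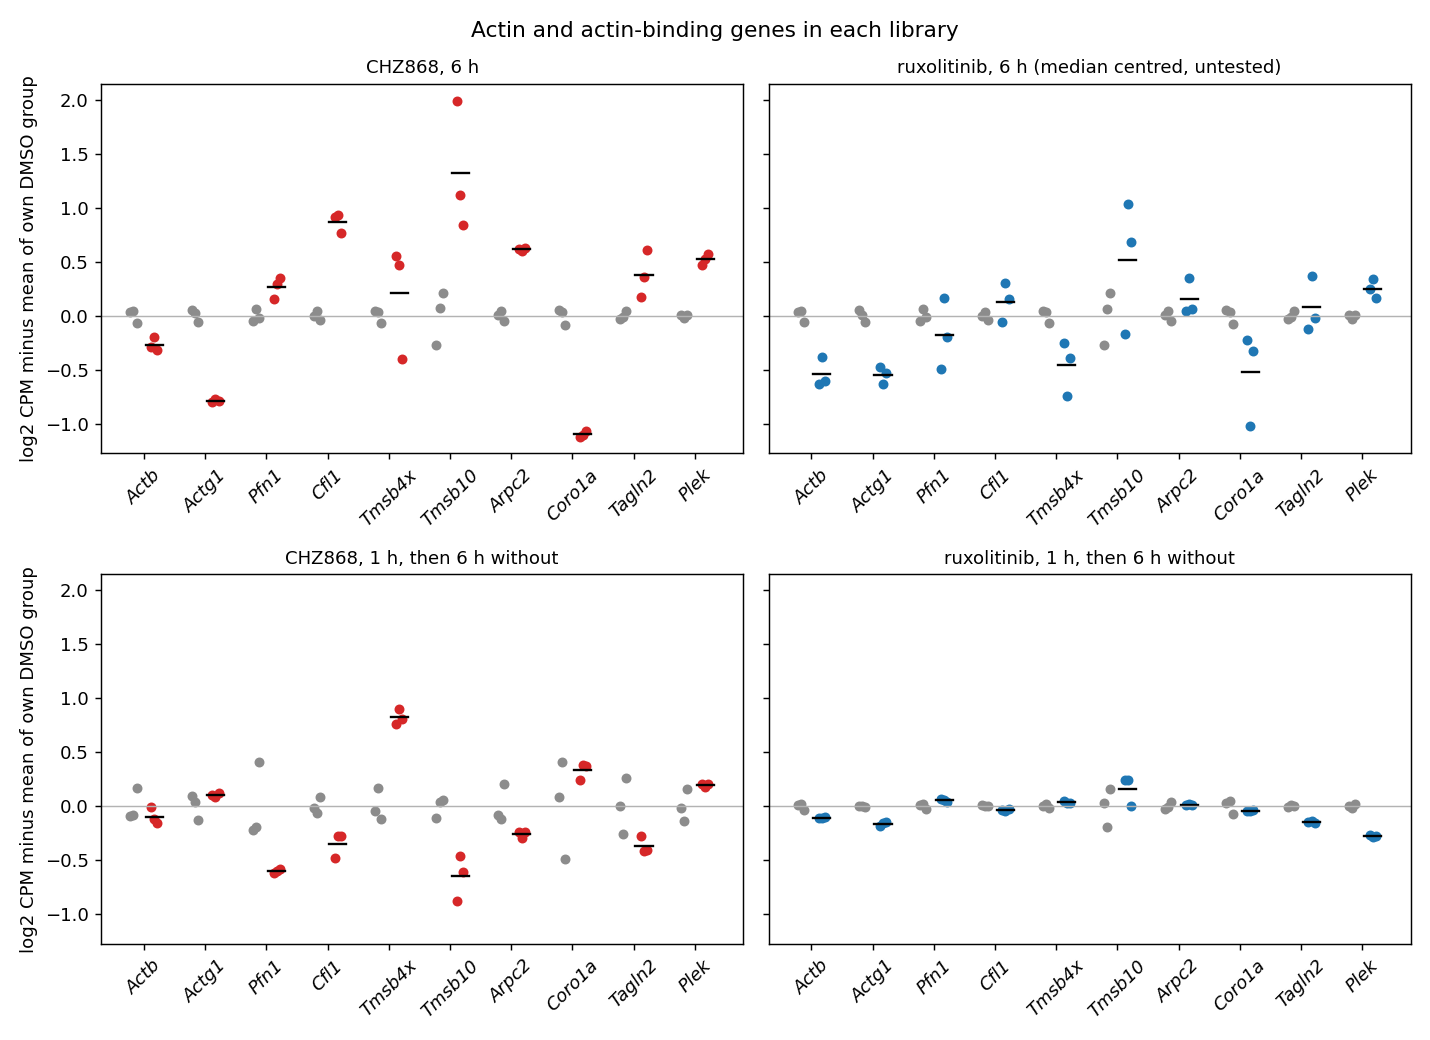
Each point is a library, plotted as its log2 CPM minus the mean of its own DMSO group (y axis), for the 10 genes (x axis) in the 4 comparisons. Grey points are DMSO libraries, red points CHZ868, blue points ruxolitinib, and black bars the inhibitor mean (n = 3). With 6 h of CHZ868 the points of Coro1a and Actg1 lie below and those of Cfl1 and Tmsb10 above the DMSO points.

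Actb, the main cytoplasmic actin (chromosome 5, 142903115 to 142906754, minus strand of GRCm38), showed 10.21, 10.30 and 10.18 log2 CPM in CHZ_treated, 9.90, 10.13 and 9.94 in Ruxo_treated and 10.53, 10.54 and 10.44 in DMSO_treated. Every inhibitor library was below every DMSO library. The difference was -0.27 ± 0.06 (SE) with CHZ868 and -0.54 with ruxolitinib after centring (-0.62 without Ruxo_treated replicate 2). After washout, Actb had 11.74 ± 0.08 log2 CPM in CHZ_wash against 11.83 ± 0.15 in DMSO_wash_exp3 (mean ± SD, n = 3), which overlap. In Ruxo_wash it had 11.36, 11.37 and 11.37 against 11.49, 11.50 and 11.44 in DMSO_wash, a difference of -0.11 ± 0.02 with no overlap. The washout difference with CHZ868 was -0.10 ± 0.12, and it was -0.01 without DMSO_wash_exp3 replicate 3 and turned to 0.12 under quantile normalization.

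Actg1, the other cytoplasmic actin (chromosome 11, 120345690 to 120348542, minus strand), stood at 8.41, 8.44 and 8.42 log2 CPM in CHZ_treated, 8.75, 8.58 and 8.72 in Ruxo_treated and 9.26, 9.23 and 9.15 in DMSO_treated. Both inhibitor groups were apart from DMSO, by -0.79 ± 0.05 (SE) with CHZ868 and -0.55 with ruxolitinib after centring (-0.51 without Ruxo_treated replicate 2). In CHZ_wash the 3 libraries were at 9.93, 9.91 and 9.95 log2 CPM, beside 9.92, 9.88 and 9.70 in DMSO_wash_exp3. Those groups overlapped, with a difference of 0.10 ± 0.09 that was 0.03 without DMSO_wash_exp3 replicate 3. Ruxo_wash libraries had 10.93, 10.95 and 10.96 log2 CPM and DMSO_wash libraries 11.11, 11.12 and 11.10, a small gap without overlap (-0.16 ± 0.01). Both actins thus lay below DMSO in all libraries of both 6 h groups and of Ruxo_wash, and after CHZ868 washout neither did.

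Among the monomer-binding genes, Pfn1 encodes profilin (chromosome 11, 70651850 to 70654644, minus strand). Its levels were 8.89, 9.03 and 9.08 log2 CPM in CHZ_treated, 8.27, 8.90 and 8.57 in Ruxo_treated and 8.69, 8.80 and 8.72 in DMSO_treated. The CHZ868 libraries were all higher, by 0.26 ± 0.06 (SE), while the ruxolitinib libraries lay on both sides of DMSO, with a difference of -0.18 (-0.34 without Ruxo_treated replicate 2, -0.02 without replicate 1). Under quantile normalization the CHZ868 difference was 0.10 and was no longer called. After CHZ868 washout the direction was the opposite: CHZ_wash had 9.63, 9.65 and 9.67 log2 CPM and DMSO_wash_exp3 10.03, 10.06 and 10.66, a difference of -0.60 ± 0.15. DMSO_wash_exp3 replicate 3 was the highest of these, and without it the difference was -0.40. After ruxolitinib washout Pfn1 was higher by 0.06 ± 0.02, with 11.83, 11.82 and 11.79 log2 CPM against 11.76, 11.78 and 11.73.

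Cfl1 encodes cofilin (chromosome 19, 5490455 to 5495201, plus strand). It had 10.30, 10.32 and 10.15 log2 CPM in CHZ_treated, 9.36, 9.69 and 9.59 in Ruxo_treated and 9.39, 9.43 and 9.35 in DMSO_treated. CHZ868 libraries were far above DMSO, by 0.87 ± 0.06 (SE) or 1.82-fold, and ruxolitinib libraries overlapped it, with a difference of 0.13 (0.05 without replicate 2, 0.23 without replicate 1). CHZ_wash libraries, at 10.01, 10.21 and 10.21 log2 CPM, were all below DMSO_wash_exp3 at 10.47, 10.42 and 10.57, by -0.35 ± 0.10. Ruxolitinib washout left -0.04 ± 0.02, with 10.47, 10.45 and 10.48 log2 CPM against 10.51, 10.50 and 10.50.

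Tmsb4x encodes thymosin beta 4, a monomer-sequestering peptide (chromosome X, 167207093 to 167209315, minus strand). In CHZ_treated it had 9.38, 9.31 and 8.44 log2 CPM, in Ruxo_treated 8.61, 8.10 and 8.49 and in DMSO_treated 8.88, 8.87 and 8.76. CHZ_treated replicate 3 was below DMSO and the other replicates above it, so the difference of 0.21 ± 0.17 (SE) rests on which libraries are kept: it was 0.51, and called, without replicate 3, 0.04 without replicate 1, 0.07 without replicate 2 and 0.03 under quantile normalization. Ruxolitinib libraries were all lower, by -0.46 after centring (-0.32 without replicate 2). After CHZ868 washout Tmsb4x was further above DMSO than the other 9 genes, by 0.82 ± 0.10 or 1.77-fold, with 9.67, 9.81 and 9.72 log2 CPM in CHZ_wash and 8.86, 9.08 and 8.78 in DMSO_wash_exp3. After ruxolitinib washout it was at 12.29, 12.28 and 12.27 log2 CPM, against 12.25, 12.26 and 12.22 in DMSO_wash.

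Tmsb10 encodes the related thymosin beta 10 (chromosome 6, 72957347 to 72958748, minus strand) and had the fewest reads of the 10 genes. Its 59, 88 and 90 reads in DMSO_treated and 336, 136 and 119 in CHZ_treated correspond to 2.80, 3.14 and 3.28 log2 CPM and to 5.07, 4.19 and 3.91. All CHZ868 libraries were higher but spread widely, with a difference of 1.31 ± 0.25 (SE) that was 0.98 without CHZ_treated replicate 1. In Ruxo_treated it had 2.93, 4.11 and 3.80 log2 CPM, a difference of 0.51 with overlap (0.25 without replicate 2, 0.86 without replicate 1). CHZ_wash libraries had 3.05, 3.47 and 3.32 log2 CPM and DMSO_wash_exp3 libraries 3.82, 3.97 and 3.99, so after washout Tmsb10 was lower in all, by -0.65 ± 0.17. Ruxo_wash and DMSO_wash overlapped, with 6.61, 6.61 and 6.37 against 6.40, 6.18 and 6.53 log2 CPM (0.16 ± 0.11, from 0.07 to 0.24 with a library left out).

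Arpc2 encodes a core subunit of the Arp2/3 complex (chromosome 1, 74236084 to 74268209, plus strand). It had 9.29, 9.28 and 9.30 log2 CPM in CHZ_treated, 8.74, 9.03 and 8.78 in Ruxo_treated and 8.69, 8.72 and 8.63 in DMSO_treated. CHZ868 libraries were tightly grouped above DMSO, by 0.61 ± 0.05 (SE), and ruxolitinib libraries were just above it, by 0.15 after centring and by 0.05 without Ruxo_treated replicate 2. After centring, Ruxo_treated replicate 1 and DMSO_treated replicate 2 both lay 0.04 above the DMSO mean to the decimals shown, so the groups were barely apart. After CHZ868 washout the order was turned around, with 9.20, 9.14 and 9.20 log2 CPM against 9.37, 9.32 and 9.64, a difference of -0.26 ± 0.10 that was -0.16 without DMSO_wash_exp3 replicate 3. Ruxolitinib washout gave 0.01 ± 0.02, or -0.01 under quantile normalization, with overlapping groups.

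Coro1a encodes coronin 1A, a coronin of blood cells (chromosome 7, 126699773 to 126707787, minus strand). It had 6.29, 6.29 and 6.33 log2 CPM in CHZ_treated, 7.19, 6.39 and 7.11 in Ruxo_treated and 7.45, 7.44 and 7.32 in DMSO_treated. With CHZ868 it was lower by 1.10 log2 units in libraries that lay close together (-1.10 ± 0.07, SE, 0.466-fold). Ruxolitinib libraries were lower as well, by -0.53, of which replicate 2 carried much: without it the difference was -0.28. CHZ_wash had 8.03, 8.17 and 8.16 log2 CPM against 7.87, 8.20 and 7.30 in DMSO_wash_exp3, which overlap, and the difference of 0.33 ± 0.18 was 0.08 without DMSO_wash_exp3 replicate 3 and 0.53 without replicate 2. After ruxolitinib washout the difference was -0.05 ± 0.03 (-0.08 without DMSO_wash replicate 3, -0.02 without DMSO_wash replicate 2).

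Tagln2 encodes transgelin 2, which binds along filaments (chromosome 1, 172500047 to 172507380, plus strand). Its CHZ_treated libraries, at 9.08, 9.27 and 9.52 log2 CPM, were above the DMSO_treated ones at 8.88, 8.90 and 8.95, by 0.38 ± 0.08 (SE), and Ruxo_treated libraries overlapped DMSO (0.08 after centring, -0.07 without replicate 2 and 0.18 without replicate 1). Both washout groups were below their DMSO groups, by -0.37 ± 0.13 with CHZ868 (10.69, 10.56 and 10.57 against 10.98, 10.71 and 11.24 log2 CPM) and by -0.15 ± 0.02 with ruxolitinib. Without DMSO_wash_exp3 replicate 3, the highest library, the CHZ868 value was -0.24.

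Plek encodes pleckstrin, a protein kinase C substrate of blood cells that acts on the cortical cytoskeleton (chromosome 11, 16971206 to 17052381, minus strand). It had 9.46, 9.51 and 9.56 log2 CPM in CHZ_treated, 9.27, 9.33 and 9.19 in Ruxo_treated and a mean of 8.99 ± 0.02 (SD, n = 3) in DMSO_treated. Both 6 h inhibitor groups were above DMSO, by 0.52 ± 0.05 (SE) and by 0.25 after centring (0.20 without Ruxo_treated replicate 2). After washout neither difference was called: CHZ_wash had 9.23, 9.21 and 9.22 log2 CPM against a mean of 9.02 ± 0.15 (SD), a difference of 0.20 ± 0.09 (0.13 without DMSO_wash_exp3 replicate 2, 0.28 without replicate 3), and Ruxo_wash had 7.25, 7.23 and 7.23 against a mean of 7.52 ± 0.02, a difference of -0.28 ± 0.03.

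After CHZ868 washout, limma called 1 of the 10 genes lower (Pfn1) and 1 higher (Tmsb4x), calls that were lost without the trend and when any of 4 libraries named below was left out, where 2.07% of 11355 genes were called lower and 1.96% higher, 4.02% in all. Other members were called with a library left out: Cfl1 without DMSO_wash_exp3 replicate 2 or 3, Tagln2 and Coro1a without its replicate 2, and Tmsb10 and Plek without its replicate 3. Without regard to the test, 5 were apart and lower and 2 apart and higher, beside 16.1% and 14.9% of all genes. After ruxolitinib washout none of the 10 was called by limma, where 0.0229% of 13085 genes were called lower and 0% higher. At an unadjusted p below 0.05 there were 6 of 10, against 920 of 13085 genes (7.03%), and 5 were apart and lower and 2 apart and higher, beside 6.59% and 6.30% of all genes. Nothing is read from these counts, for the reason given above.

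Over the 21 libraries, each written as its difference from its own DMSO mean, the mean of the 10 correlated with its members at a Pearson r from -0.67 (Coro1a) and -0.50 (Actg1), over 0.11 (Tmsb4x), 0.18 (Actb), 0.47 (Plek), 0.64 (Tagln2), 0.70 (Pfn1) and 0.74 (Tmsb10), to 0.78 (Arpc2) and 0.84 (Cfl1). That mean contains each of them. Outside the list, Iscu (0.93), Rpf2 (0.93), Eif4e (0.92), Dcaf13 (0.91) and Atp1b3 (0.91) were most like that mean among the 9973 genes of all tables. These r are descriptions, since the mean comes from the differences that chose the genes and libraries of a group share their treatment and table. The differences of Eif4e were 0.57 with 6 h of CHZ868, -0.21 with 6 h of ruxolitinib, -0.23 after CHZ868 washout and -0.11 after ruxolitinib washout. After CHZ868 washout Rpf2 was at -0.22, Iscu at -0.06, Atp1b3 at -0.04 and Dcaf13 at 0.00.

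A wider list of 137 further actin cytoskeleton genes in 14 lists by role, drawn up with earlier results of these data known, was counted against all genes. Of these, 110 were in the 6 h CHZ868 table, and limma called 23 lower (20.9%) and 52 higher (47.3%), where 26.4% and 26.8% of all genes were called. The median difference was 0.20, against -0.01 over all genes. With 6 h of ruxolitinib 17 of the 110 (15.5%) were apart and lower and 51 (46.4%) apart and higher, against 20.1% and 24.6% of the shared genes, with a median of 0.14 against 0.04. The 2 counts share their DMSO libraries. Here and after washout, the wider list was not matched to all genes by expression level, and its shares were not tested.

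The counts by role, in comparisons that share their DMSO libraries, stand beside 26.8% of all genes called higher and 26.4% lower with CHZ868, and 24.6% apart and higher and 20.1% apart and lower with ruxolitinib. No test of a group was made, and only some of the 14 lists are given. Of 11 nucleation promoting factors in the table, 8 rose and 0 fell with CHZ868 by limma (median 0.47, with 8 at an unadjusted p below 0.05), and 7 were apart and higher and 0 lower with ruxolitinib (median 0.28). Ruxo_treated replicate 2, whose mitochondrial share was raised, was the highest library for each of those 7. All 3 ERM proteins, which tie filaments to the membrane, rose with CHZ868 (0.33 to 0.57) and were apart and higher with ruxolitinib, where Ruxo_treated replicate 2, the library with the raised mitochondrial share, was the highest for Ezr and Msn. Of 7 myosins, with CHZ868 3 fell and 0 rose (0 higher at an unadjusted p below 0.05), and with ruxolitinib 1 was apart and lower and 4 apart and higher. Other lists went both ways with CHZ868, such as formins (3 lower, 4 higher) and adhesion adaptors (4 lower, 3 higher). With ruxolitinib 4 Arp2/3 genes were apart and lower and 1 higher. After CHZ868 washout 5 of 11 nucleation promoting factors (45.5%) were apart and lower and 0 higher, beside 16.1% and 14.9% of all genes. That share was near that of the whole wider list, 41.3% lower and 8.26% higher, so it was not particular to them. Of 11 crosslinkers and bundlers 7 were apart and lower, as were all 3 coronins, while of 9 Arp2/3 genes 0 were lower and 2 higher.

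The largest rise in the wider list with CHZ868 was that of Arpc3, another Arp2/3 subunit, with 8.32, 8.06 and 8.15 log2 CPM in CHZ_treated and 6.77, 6.67 and 6.84 in DMSO_treated. All CHZ868 libraries were higher, by 1.42 ± 0.07 (SE, limma adjusted p = 8.94e-10), or 2.67-fold. Of the 9 Arp2/3 genes of the wider list, Arpc3 rose, 3 fell and 5 were not called, where 26.8% of all genes were called higher and 26.4% lower, and Arpc2, described above and not among the 9, was called higher. The next 4 were Arhgdib, which holds small GTPases inactive in blood cells (1.00 ± 0.06), the GTPases Rac2 (0.98 ± 0.05) and Rac1 (0.93 ± 0.05), and Cdc42, which acts on WASP proteins (0.86 ± 0.09).

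Among those that fell with CHZ868, Actg2, a smooth muscle actin, was at -0.13, 1.31 and 0.43 log2 CPM in CHZ_treated and 2.33, 2.92 and 2.57 in DMSO_treated. The fall was -2.07 ± 0.40 (SE, adjusted p = 4.86e-04) at a low level, and -0.76 on a log2(CPM + 5) scale. Vasp, which extends filaments at their barbed ends, had 6.71, 6.80 and 6.59 log2 CPM against 7.66, 7.84 and 7.74, a fall of -1.04 ± 0.07 (adjusted p = 1.78e-08). The adhesion protein Tln1 (-0.79 ± 0.06), the crosslinker Flna (-0.79 ± 0.05) and the formin Fhod1 (-0.71 ± 0.15) followed.

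With 6 h of ruxolitinib, the genes apart and lower by most after centring were Actr3b (-0.86), an Arp3 paralog, Actg2 (-0.85), Vasp (-0.61), the capping subunit Capza2 (-0.57) and Srf (-0.48). On a log2(CPM + 5) scale Actr3b was at -0.64 and Actg2 at -0.42. Those apart and higher by most were Mrtfa (0.79), the WAVE complex gene Cyfip2 (0.76), the crosslinker Actn1 (0.74), the adhesion protein Vcl (0.74) and the formin Daam1 (0.67). Vasp had 7.27, 6.73 and 7.48 log2 CPM in Ruxo_treated, all below the DMSO_treated values given above, and its difference was -0.40 without replicate 2.

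**Figure D2:**
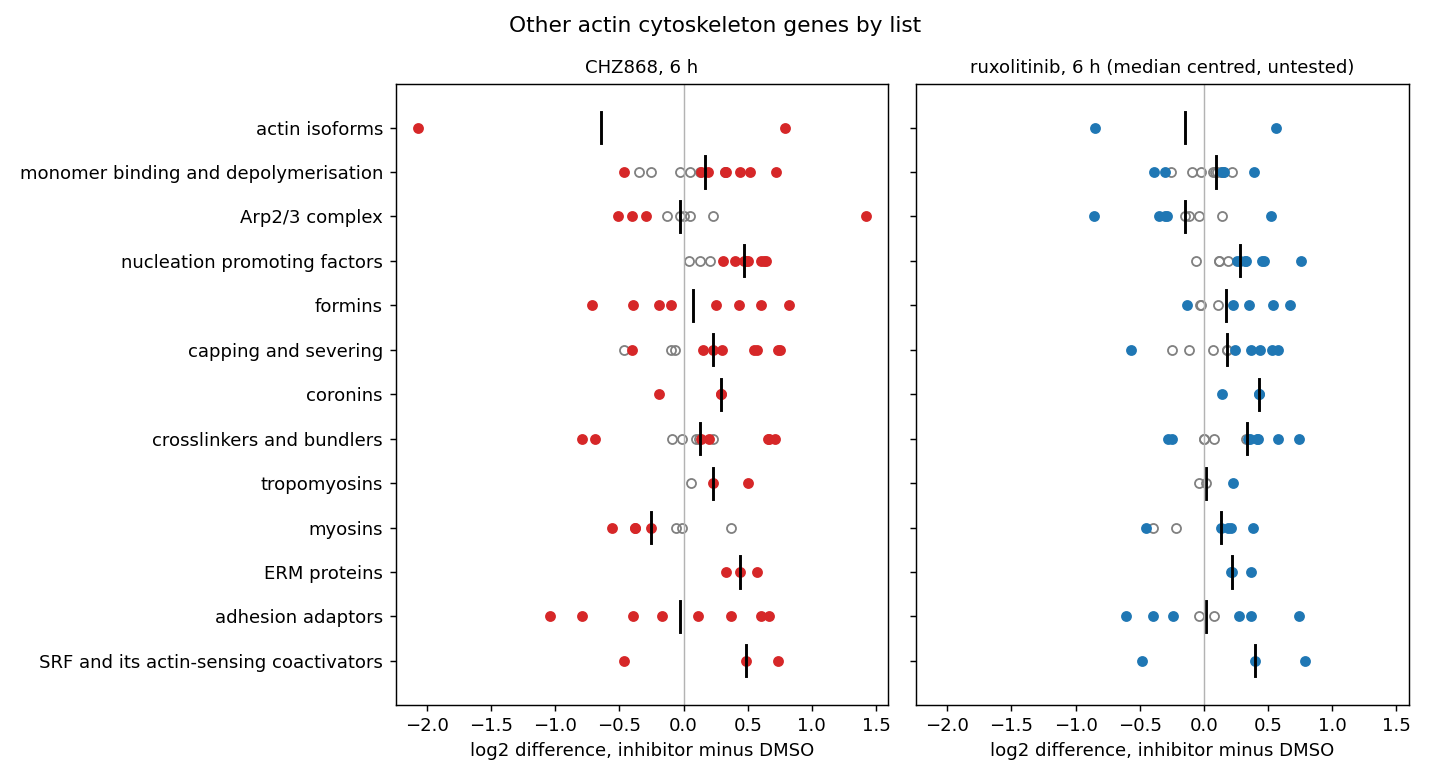
Each point is a gene of the wider list (most of its lists are drawn), placed by its log2 difference, inhibitor minus DMSO (x axis), in its role group (y axis), after 6 h of CHZ868 or of ruxolitinib (3 against 3 libraries). Filled points are genes whose groups do not overlap, open points those that do, and black bars are medians. Nucleation promoting factors have medians of 0.47 and 0.28, while the adhesion adaptors lie on both sides of 0.

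In both 6 h groups Srf was lower than DMSO and its actin-sensing coactivators were higher, and the schedules were not compared by a test. With 6 h of CHZ868, Srf had 5.28, 4.83 and 5.28 log2 CPM against 5.53, 5.71 and 5.51 in DMSO_treated, and fell by 0.46 (-0.46 ± 0.13, SE, adjusted p = 0.00655 by limma). After correction for GC content and transcript length, an alternative chosen after seeing the data, it was at -0.21 and no longer called. Mrtfa had 5.66, 5.95 and 6.08 log2 CPM against 5.31, 5.09 and 5.07 and rose (0.74 ± 0.11, adjusted p = 7.45e-05), as did Mrtfb (0.49 ± 0.09, adjusted p = 3.56e-04). Ruxolitinib gave -0.48 for Srf, 0.79 for Mrtfa and 0.40 for Mrtfb, each without overlap. After CHZ868 washout all 3 were apart and lower (-0.45, -0.53 and -0.29) and none was called by limma, though all 3 had an unadjusted p below 0.05 (0.00528, 0.00203 and 0.0286), and Srf and Mrtfa were called without DMSO_wash_exp3 replicate 2 or 3 (-0.53 or -0.30 for Srf). After ruxolitinib washout they were at -0.03, 0.01 and -0.08, with overlap, and with a library left out the sign for Mrtfa changed, Mrtfb went from -0.18 to -0.01 and Srf from -0.09 to -0.00.

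After CHZ868 washout, limma called 8 of 109 genes of the wider list lower (7.34%) and 4 higher (3.67%), against 2.07% and 1.96% of all genes, with a median of -0.12 against 0.01. The groups were apart and lower for 45 (41.3%) and apart and higher for 9 (8.26%), against 16.1% and 14.9% of all genes, and 42 (38.5%) had an unadjusted p below 0.05, against 24.4%.

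Among called genes the largest falls were those of the formin Fmnl1 (-0.47 ± 0.09), the crosslinker Actn4 (-0.45 ± 0.09), the tropomyosin Tpm3 (-0.41 ± 0.09), the Arp2/3 activator Was (-0.40 ± 0.09) and the coronin Coro1b (-0.39 ± 0.09), with adjusted p from 0.0316 (Fmnl1) to 0.0462 (Coro1b). The rises were Cfl2, muscle cofilin (0.51 ± 0.12), the Arp2/3 subunit Actr2 (0.47 ± 0.09), Capza2 (0.42 ± 0.08) and Gmfb, a debranching factor (0.37 ± 0.08). Fmnl1 had 6.97, 7.01 and 7.01 log2 CPM in CHZ_wash and 7.48, 7.34 and 7.56 in DMSO_wash_exp3. The calls of this comparison depend on the library set: the 12 calls became 0 without CHZ_wash replicate 1, 2 or 3 or DMSO_wash_exp3 replicate 1, 24 without DMSO_wash_exp3 replicate 2 and 31 without its replicate 3, and GC and length correction left 0. With a library left out, the differences of the genes named here ranged from -0.52 to -0.33 for the falls and from 0.33 to 0.56 for the rises. Their calls were lost in the fits with 0 calls. Likewise Pfn1 and Tmsb4x were not called without CHZ_wash replicate 1 (-0.59 and 0.85), replicate 2 (-0.60 and 0.78), replicate 3 (-0.61 and 0.83) or DMSO_wash_exp3 replicate 1 (-0.71 and 0.80), and their signs held.

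After ruxolitinib washout limma called 0 of 113 genes of the wider list, with 16 at an unadjusted p below 0.05 (14.2%, against 7.03% of all genes). The groups were apart and lower for 18 (15.9%) and apart and higher for 7 (6.19%), against 6.59% and 6.30% of all genes. Flna (7.39, 7.39 and 7.41 against 7.64, 7.64 and 7.70 log2 CPM) was at -0.26 ± 0.03 (adjusted p = 0.112), named here after its value was seen.

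The effects of the washouts were compared in a limma interaction over 12 libraries and 10078 genes, where inhibitor and experiment cannot be told apart. The fit takes the spread of a gene as equal in all washout groups, which was not so for every gene. In Ruxo_wash, DMSO_wash, CHZ_wash and DMSO_wash_exp3 the SD was 0.01, 0.02, 0.01 and 0.15 for Plek. It was 0.01, 0.02, 0.07 and 0.15 for Tmsb4x and 0.14, 0.17, 0.21 and 0.09 for Tmsb10. The SE and calls below rest on that assumption. Of the 10 genes 3 were called, where 1.90% of all genes were called, 0.923% with a lower and 0.972% with a higher ruxolitinib effect: the ruxolitinib effect minus the CHZ868 effect was -0.78 ± 0.11 for Tmsb4x, 0.81 ± 0.18 for Tmsb10 and -0.48 ± 0.10 for Plek. Nothing is read from that count of 3, since the washout differences that the interaction compares also chose the genes. In the wider list 5 of 106 were called, Actr2 (-0.51), Capza2 (-0.50), Actn4 (0.55), Fmnl1 (0.41) and Capzb, the other capping subunit (0.34, named after its value was seen). The number of calls over all genes, 191, went from 5 to 628 with a library left out, so the calls depend on the library set. Tmsb10 and Plek were no longer called when any library other than DMSO_wash_exp3 replicates 2 and 3 was left out (0.69 to 0.91 for Tmsb10, -0.49 to -0.47 for Plek) or without the trend, and Tmsb4x was not called without CHZ_wash replicate 3 (-0.79). Under quantile normalization the Tmsb4x value was further below 0.

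Reads can be shared between near copies, taken as at least 90% identity over 200 bases in the transcripts of GENCODE vM21. Actg1 had 13 such copies, the longest match being Gm8543 (95.6% over 1130 bases). Cfl1 had 5 and Actb 3. Actb and Actg1 are copies of each other by this measure, so their values may share reads and are not separate observations. The copies of Actb include a stretch of Lrrc58 (90.6% over 1347 bases). Tmsb10 had Gm9844, 99.0% identical over 413 bases, and Arpc2 had AC154544.1, 96.1% identical over 510, while Tagln2, Pfn1, Tmsb4x, Coro1a and Plek had none. Nothing says that the counting used strand, so reads of Cfl1 and Snx32 (468 shared exon bases on opposite strands), Plek and Cnrip1 (199) and Coro1a and Bola2 (26) cannot be told apart. Values of Actg1, Actb, Cfl1, Tmsb10, Arpc2, Plek and Coro1a are uncertain by that much. In the wider list the same holds for Rac1 and Daglb (2309 shared exon bases), Vcl and Ap3m1 (2090), Actn1 and Gm47766 (363), Tln1 and Creb3 (360) and Actn4 and Capn12 (316).

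Coro1b and Ptprcap share 432 exon bases on the same strand, which counting by strand would not separate, and Tpm3 has 8 near copies, Cdc42 3 and Actr2 2.

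Promoter windows of 300 bases, 250 before and 50 after a start, were taken from RefSeq (GRCm38.p6) for 9 of the 10 genes, in 12 windows; Actb had no entry. They were searched on both strands for the CArG box, the motif that Srf binds, and for TTCNNNGAA, the motif that STAT factors bind. The CArG box was in 1 of the 9 genes, Actg1, and in 1.63% of all 32851 windows. TTCNNNGAA was in 0 of the 9 genes and in 8.30% of all windows. A match is a description of letters, not a site, and no match says only that the letters are not in these windows.

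The Actg1 match begins 90 bases before the start and is shown because Actg1 was lower in both 6 h comparisons. The stretch is chr11:120348566-120348595 on the minus strand, with the CArG box in capitals.
Actg1: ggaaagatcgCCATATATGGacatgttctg

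For comparison, the bases before the start are given for Cfl1 and Tmsb10, which were higher with CHZ868, and for Coro1a, which was lower. They come from chr19:5490205-5490454 on the plus strand, chr6:72958749-72958998 on the minus strand and chr7:126704817-126705066 on the minus strand. The Coro1a start lies inside the gene's annotated span, and none of these holds either motif, so no letters are in capitals.
Cfl1: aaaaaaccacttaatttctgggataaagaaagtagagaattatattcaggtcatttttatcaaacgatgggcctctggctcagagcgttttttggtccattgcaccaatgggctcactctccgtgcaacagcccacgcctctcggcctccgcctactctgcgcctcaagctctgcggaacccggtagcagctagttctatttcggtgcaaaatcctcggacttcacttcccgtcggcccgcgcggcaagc
Tmsb10: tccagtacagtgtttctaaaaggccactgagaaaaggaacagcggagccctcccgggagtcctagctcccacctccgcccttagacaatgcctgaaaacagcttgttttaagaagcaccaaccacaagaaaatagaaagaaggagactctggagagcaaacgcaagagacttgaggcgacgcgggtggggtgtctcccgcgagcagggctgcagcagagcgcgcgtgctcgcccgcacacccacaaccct
Coro1a: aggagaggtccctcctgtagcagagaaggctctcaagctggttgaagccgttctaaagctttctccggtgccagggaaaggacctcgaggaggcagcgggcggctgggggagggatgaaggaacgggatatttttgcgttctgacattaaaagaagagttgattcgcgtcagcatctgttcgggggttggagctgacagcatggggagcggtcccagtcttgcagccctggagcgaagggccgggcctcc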

How the data were processed

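The members and gene lists were chosen with earlier results of these data known. The values the authors deposited are log2 CPM per gene, after TMM normalization and a filter on low genes, with a small constant added. The paper's methods name kallisto and GRCm38, and the submitters' processing notes name STAR 2.7.3a, edgeR 4.0.16 and GRCm39. Which of them made each table is not stated. The library kit was strand-specific. Samples were grouped by their labels.

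For groups of the same table, all genes went into limma with its trend option (limma 3.58.1, R 4.3.3), without a replicate block. Adjustment was by Benjamini-Hochberg, with calls below 0.05. The study's voom weights need counts, so the trend took their place. Ruxo_treated and DMSO_treated were centred over shared genes and not tested. The washout effects were compared by an interaction over 10078 genes.

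Depth was read from the low values: after the constant (0.222, 0.213 or 0.222 CPM) was removed, 100% of them lay within 0.1 of whole reads in 3 tables. The Ruxo_wash and DMSO_wash values did not (14.7% to 37.0%), so the depth is unknown there.

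Named genes were the 10 members, Srf, Mrtfa and Mrtfb, and in each comparison the 5 largest rises and 5 largest falls of the wider list among called genes without overlap (without the test: among those without overlap), and the 5 genes most like the members' mean. Positions, transcripts and exons came from GENCODE vM21 (GRCm38), as the tables hold symbols, and copies from blastn 2.17.0. The fits were tested on simulated data. Alternatives were limma without the trend, median centring, no centring, quantile normalization, a mean log2 CPM of at least 3, log2(CPM + 5), a replicate block, each library left out, and, chosen after seeing the data, a correction for GC content and transcript length.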

Additional observations from a re-analysis of the deposited data

Results flagged for a closer look

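The results given here differ between inhibitors or schedules for the same contrast of inhibitor and DMSO. The genes were chosen with these contrasts known, so the values are descriptions. By the limma interaction, the ruxolitinib washout effect minus the CHZ868 washout effect was -0.78 for Tmsb4x (0.04 and 0.82), 0.81 for Tmsb10 (0.16 and -0.65) and -0.48 for Plek (-0.28 and 0.20). The calls of Tmsb10 and Plek were lost when most single libraries were left out, and that of Tmsb4x without CHZ_wash replicate 3. For Pfn1 every Ruxo_wash library was above DMSO (0.06) and every CHZ_wash library below it (-0.60), a gap of 0.66 in which the interaction did not pass the threshold, though it did without DMSO_wash_exp3 replicate 2 (0.75) or 3 (0.45), so that too depends on the library set.

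For CHZ868, 5 genes were higher in every library after 6 h of exposure and lower in every library after washout, as were 8.64% of the 11175 genes in both tables. Nothing is read from that count, since these contrasts chose the genes. The 6 h difference minus the washout difference was 1.96 for Tmsb10 (1.31 and -0.65), 1.21 for Cfl1 (0.87 and -0.35), 0.88 for Arpc2 (0.61 and -0.26), 0.86 for Pfn1 (0.26 and -0.60) and 0.75 for Tagln2 (0.38 and -0.37). For ruxolitinib, the same quantity was -0.50 for Tmsb4x (-0.46 and 0.04) and 0.53 for Plek (0.25 and -0.28), whose libraries lay on opposite sides of DMSO, as did those of 1.41% (lower, then higher) and 1.84% (higher, then lower) of the 10209 genes in both comparisons. These differences between schedules were not tested. The schedules are in tables normalized separately, and schedule and experiment cannot be told apart.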

How the results depend on the processing

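Labels do not say that replicates are separate cultures, inhibitor and experiment are joined in the washouts, and Ruxo_treated has no test. With 6 h of CHZ868 the members' median of 0.32 was 0.16 under quantile normalization, 0.42 after GC and length correction (chosen after seeing the data) and 0.30 to 0.40 with a library left out. Calls stayed between 5081 and 6426 genes (6214 with all libraries) and between 67 and 80 of the wider list (75; 17 to 24 lower, 48 to 56 higher). With 6 h of ruxolitinib the median of -0.05 went from -0.18 to 0.08, and genes apart from 5871 to 6654 (5190), 72 to 80 of the wider list (18 to 24 lower and 53 to 58 higher, with 17 and 51 for all libraries). Fewer libraries make groups without overlap more frequent, so the higher counts follow from the rule.

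After CHZ868 washout the 457 calls were 0 without the trend, 29 after GC and length correction and 0 to 1426 with a library left out. The 12 calls of the wider list (8 lower, 4 higher) were 0 lower and 0 higher without the trend and after GC and length correction, and 0 to 31 with a library left out (0 to 23 lower, 0 to 8 higher). The members' median of -0.18 was -0.06 under quantile normalization and -0.23 to -0.09 with a library left out, and Actb turned from -0.10 to 0.12 under quantile normalization. After ruxolitinib washout the 3 calls were 9 without the trend and 0 to 1 with a library left out, with 0 in the wider list throughout. The median of -0.04 was -0.03 after median centring, -0.09 under quantile normalization and -0.06 to -0.03 with a library left out. Arpc2 turned to -0.01 under quantile normalization, and Mrtfa, at 0.01, went from -0.11 (without Ruxo_wash replicate 3) to 0.19, with -0.06 without Ruxo_wash replicate 2 or DMSO_wash replicate 1. Of the washout effects compared, the 191 calls were 14 without the trend and 5 to 628 with a library left out, and Actb, at -0.01, went from -0.10 to 0.03 (without CHZ_wash replicate 1 or DMSO_wash_exp3 replicate 1 or 2).

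Same-numbered libraries did not deviate together (r from -0.05 to 0.05), so replicate numbers are not taken as a pairing. With the replicate number as a block, ruxolitinib washout had 0 calls, CHZ868 washout 2 higher in the wider list, and the comparison of washouts 6, without Tmsb4x, Tmsb10 or Plek. The comparison of Ruxo_treated was planned without a test, so no block was fitted to it.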
